A study of Rattus norvegicus with 78 samples.

Results

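Spata (spermatogenesis associated) is a naming stem for genes first found through their transcripts in the testis, and the arrays measured 21 of them among 14506 genes with a probe set of 1 symbol. The members were all platform symbols that start with Spata and a digit. Each had 1 probe set, and all 21 matched the RefSeq gene table by Entrez identifier. RNA came from sperm of Fischer 344 rats, let out of the cauda epididymis, on 78 arrays, each of its own sample. The groups were DBCP rats after recovery (19 arrays), corn oil rats after recovery (19), DBCP rats at the end of exposure (20) and corn oil rats at the end of exposure (20). DBCP (1,2-dibromo-3-chloropropane, a soil fumigant toxic to male germ cells) was given at 5 mg/kg/day in both DBCP groups, and the text of the series gives 3 months of exposure. Corn oil, the vehicle, was given at a DBCP dose of 0 in both control groups. The length of the recovery period and the age of the rats are not stated in these sources.

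Sperm make almost no RNA of their own. Round spermatids transcribe and store messages before their chromatin is packed, and sperm in the epididymis carry what is left of them. Many Spata proteins act in that late phase, in the mitochondrial sheath, the neck, the tail or the head of the sperm, but they are not one family by sequence. The shared name covers a few true families, such as Spata31 and its relatives, and some genes used in many tissues, such as Spata2 and Spata13.

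The labelled cell type was checked against its markers. The mean log2 level of 10 spermatid genes (protamines, transition proteins, tail and acrosome genes) lay between 9.86 and 12.08 on all arrays. Single genes differed widely. The brightest, Smcp, averaged 14.13, while the acrosome gene Acrv1 averaged 6.24, below the median of all probe set means. From the end of exposure to recovery, 0 Sertoli or Leydig cell markers rose in either treatment (limma adjusted p under 0.05). In DBCP rats 1 of 8 Sertoli and 1 of 5 Leydig cell markers fell, where 6.19% of all probe sets did. In corn oil rats 2 of 8 and 2 of 5 fell, where 12.8% did. All 8 and all 5 differences in corn oil rats lay below 0, where 38.4% of all probe sets lay above 0. The 8 Sertoli cell markers on the array had a mean level between 6.43 and 6.91, and the 5 Leydig cell markers between 6.44 and 6.90, close to the median of all probe set means (6.69). The mean of 19 leukocyte markers was above it on all arrays, between 7.84 and 9.36. The title of the series names the testis, while the labels name sperm. Of the 6 arrays with a limma array weight under 0.5, DBCP replicates 2, 13 and 20 came from the end of exposure, DBCP replicates 7 and 15 and corn oil replicate 11 from the recovery. On DBCP end of exposure replicate 13, 17 of the 21 members ranked among the 3 highest of the group, as did 17 on replicate 2 and 10 on replicate 20. Counts in each comparison are given with and without these arrays.

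In both treatments the Spata transcripts stood lower on recovery arrays than on arrays from the end of exposure. In DBCP rats 16 of the 21 Spata members fell and 0 rose, where 6.19% of all probe sets fell and 7.28% rose (13.5% in either direction). In corn oil rats 12 of 21 fell and 0 rose, where 12.8% of all probe sets fell and 11.5% rose (24.3% in either direction). A fall or rise means a limma adjusted p under 0.05 (Benjamini-Hochberg over 29214 probe sets). Of all probe sets 52.6% had a log2 difference above 0 in DBCP rats and 38.4% in corn oil rats. All 21 members had a log2 difference below 0 in both treatments. After centring on the array medians this held for 21 in DBCP rats and 19 in corn oil rats, and with quantile normalization for 21 in both. The median log2 difference was -0.47 over the members and 0.01 over all probe sets in DBCP rats, and -0.20 and -0.04 in corn oil rats. In both treatments 9 members fell (Spata18, Spata19, Spata20, Spata24, Spata2L, Spata3, Spata31f3, Spata32 and Spata6). In DBCP rats alone 7 passed, in corn oil rats alone 3, and in neither 2. A call in one treatment alone does not show that the treatments differ, and the test of that difference, the interaction below, passed for 0 members.

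The promoters of 3 members that fell together in both treatments, and of 1 that passed in DBCP rats alone, are shown because germ cell genes are often switched on through the cyclic AMP response element (CRE) by the spermatid activator CREM. They run from 250 bases before to 50 bases after the gene start in RefSeq's GRCr8 assembly, 5′ to 3′ on the gene's strand. Capitals mark the CRE letters TGACGTCA or its core TGACG, on either strand. In order they lie at chr8:34073102-34073401 (plus strand), chr5:131821335-131821634 (plus), chr10:88664095-88664394 (minus) and chr6:123609364-123609663 (plus).
Spata19: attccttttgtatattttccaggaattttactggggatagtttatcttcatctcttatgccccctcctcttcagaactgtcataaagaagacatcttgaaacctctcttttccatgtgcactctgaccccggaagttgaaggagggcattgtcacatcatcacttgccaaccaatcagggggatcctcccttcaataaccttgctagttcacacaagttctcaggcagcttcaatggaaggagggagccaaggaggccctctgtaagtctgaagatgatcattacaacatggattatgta
Spata6: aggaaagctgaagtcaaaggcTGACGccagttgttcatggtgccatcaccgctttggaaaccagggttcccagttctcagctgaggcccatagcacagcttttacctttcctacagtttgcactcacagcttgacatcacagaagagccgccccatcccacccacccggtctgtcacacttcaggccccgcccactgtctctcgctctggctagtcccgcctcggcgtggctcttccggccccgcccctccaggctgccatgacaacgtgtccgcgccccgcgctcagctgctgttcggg
Spata32: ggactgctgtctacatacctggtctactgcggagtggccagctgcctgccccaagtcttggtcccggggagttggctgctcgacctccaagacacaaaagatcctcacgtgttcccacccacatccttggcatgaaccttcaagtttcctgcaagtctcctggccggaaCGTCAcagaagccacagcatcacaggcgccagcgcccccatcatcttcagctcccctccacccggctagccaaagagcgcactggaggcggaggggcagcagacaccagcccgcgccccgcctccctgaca
Spata7: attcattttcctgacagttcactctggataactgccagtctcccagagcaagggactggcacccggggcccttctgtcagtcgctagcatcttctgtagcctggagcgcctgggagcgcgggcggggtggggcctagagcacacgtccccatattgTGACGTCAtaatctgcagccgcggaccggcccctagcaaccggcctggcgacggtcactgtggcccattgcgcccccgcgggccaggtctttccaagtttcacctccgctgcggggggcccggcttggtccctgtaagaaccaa
The whole CRE was found in 1 of 21 member promoters, that of Spata7 at position -94 from the start, against 1.83% of the 33469 promoters in the table. The core TGACG, which a whole CRE also holds, was found in 7 of 21 (33.3%), those of Spata1, Spata18, Spata2, Spata2L, Spata32, Spata6 and Spata7, against 21.2% of all promoters. It began at position -229 in Spata6 and -81 in Spata32. Of the promoters shown only that of Spata19 lacks the core, so those shown do not stand for all 21 members. The TATA letters TATAAA were found in 1 member promoter, that of Spata4, against 14.2% of all. Spata19 held none of these letters. Its window had 1 CG step, while that of Spata6 had 17 and that of Spata32 had 14. The median GC content was 59.0% over the members and 51.7% over all promoters.

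**Figure D1:**
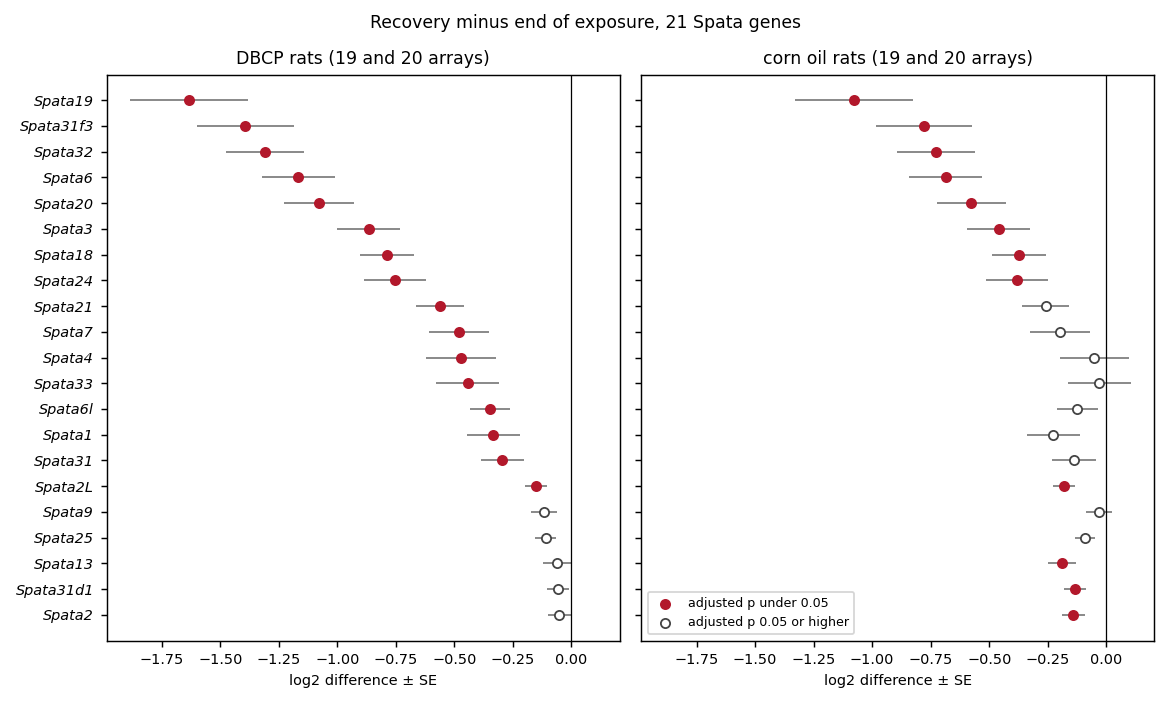
Log2 difference (recovery minus end of exposure) of the 21 Spata genes in DBCP rats and in corn oil rats, with its SE as a bar; filled points have a limma adjusted p under 0.05. All 21 points lie left of 0 in both panels, from -1.63 to -0.05 in DBCP rats and from -1.08 to -0.03 in corn oil rats.

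Of the mitochondrial members, all 3 fell in DBCP rats and 2 of 3 in corn oil rats. Spata19 encodes a protein of the sperm mitochondria that mouse sperm need for an ordered mitochondrial sheath and for motility. Its log2 level on DBCP arrays was 7.16 at the lowest, 8.22 at the median and 9.27 at the highest after recovery, against 8.23, 9.70 and 12.14 at the end of exposure. On corn oil arrays it was 7.05, 8.19 and 8.76 after recovery, against 7.47, 9.20 and 10.77 at the end of exposure. The ranges overlapped in both treatments, but all 19 recovery arrays lay below the end of exposure mean in each. The fall was 3.10-fold in DBCP rats (-1.63 ± 0.25, SE, limma adjusted p = 1.68e-06) and 2.11-fold in corn oil rats (-1.08 ± 0.25, limma adjusted p = 0.00117).

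Spata18 encodes Mieap, which takes part in the clearing of damaged mitochondria. It stood at a lowest of 10.72, a median of 11.15 and a highest of 11.80 on DBCP recovery arrays, against 11.32, 11.92 and 13.00 on DBCP end of exposure arrays. The corn oil arrays had 10.29, 11.25 and 11.62 after recovery, against 10.56, 11.59 and 12.08 at the end of exposure. The end of exposure arrays reached higher in both treatments, and all 19 DBCP recovery arrays and 18 of 19 corn oil recovery arrays lay below the earlier mean. Spata18 fell by 0.79 ± 0.12 in DBCP rats (SE, limma adjusted p = 5.53e-07) and by 0.37 ± 0.12 in corn oil rats (limma adjusted p = 0.0130). Spata33, which ties the phosphatase calcineurin to sperm mitochondria in the mouse, fell by 0.44 ± 0.14 in DBCP rats (limma adjusted p = 0.0179). The Spata33 call was lost in replicate numbers 1 to 10 alone and in numbers 11 to 20 alone. In corn oil rats the Spata33 difference was -0.03 ± 0.14 (limma adjusted p = 0.894), and 10 of 19 recovery arrays lay above the earlier mean. The sign of this difference turned when arrays were centred on their medians (0.0013).

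The list of tail, neck and cilium genes had 5 members, of which 5 fell in DBCP rats and 2 (Spata6 and Spata32) in corn oil rats. Spata32 was counted in this list, though its site is not certain. Spata6 is needed in the mouse to build the connecting piece that joins the sperm head to the tail. It stood at 8.74, 9.33 and 10.11 (lowest, median, highest) on DBCP recovery arrays, against 9.54, 10.44 and 11.95 on DBCP end of exposure arrays. Corn oil arrays had 8.44, 9.37 and 9.79 after recovery, against 8.82, 9.95 and 11.04 before it. No recovery array of either treatment reached the end of exposure mean of its treatment. The fall was 2.25-fold in DBCP rats (-1.17 ± 0.16, limma adjusted p = 9.43e-08) and 1.61-fold in corn oil rats (-0.69 ± 0.16, limma adjusted p = 0.000831).

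Spata6l, the relative of Spata6, fell by 0.35 ± 0.09 in DBCP rats (limma adjusted p = 0.00275), and its difference in corn oil rats was -0.12 ± 0.09 (limma adjusted p = 0.290). Spata7, known for the connecting cilium of photoreceptors and for inherited retinal disease in humans, fell by 0.48 ± 0.13 in DBCP rats (limma adjusted p = 0.0054). Its difference in corn oil rats was -0.20 ± 0.13 (limma adjusted p = 0.251). Both genes thus passed in DBCP rats, and their corn oil differences had the same sign. Spata4 fell by 0.47 ± 0.15 in DBCP rats (limma adjusted p = 0.0236), and its corn oil difference was -0.05 ± 0.15 (limma adjusted p = 0.831). The Spata4 call was lost without DBCP end of exposure replicate 2 or 13 alone. It was also lost in replicate numbers 1 to 10 alone, in numbers 11 to 20 alone, and when only the DBCP groups were fitted. Spata4 passed without all 6 arrays of low weight (-0.33, limma adjusted p = 0.0374).

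Spata32 was in the same list, but no role is given to it here. Its levels were 6.46, 7.32 and 8.14 on DBCP recovery arrays, against 7.62, 8.41 and 10.09 on DBCP end of exposure arrays. Corn oil arrays had 6.75, 7.38 and 7.94 after recovery, against 6.96, 7.96 and 8.99 at the end of exposure. Every recovery array lay below the earlier mean of its treatment. Of the 21 members it had the smallest p in DBCP rats (-1.31 ± 0.17 or 2.48-fold lower, limma adjusted p = 3.66e-08), and in corn oil rats it fell 1.66-fold (-0.73 ± 0.17, limma adjusted p = 0.000902).

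**Figure D2:**
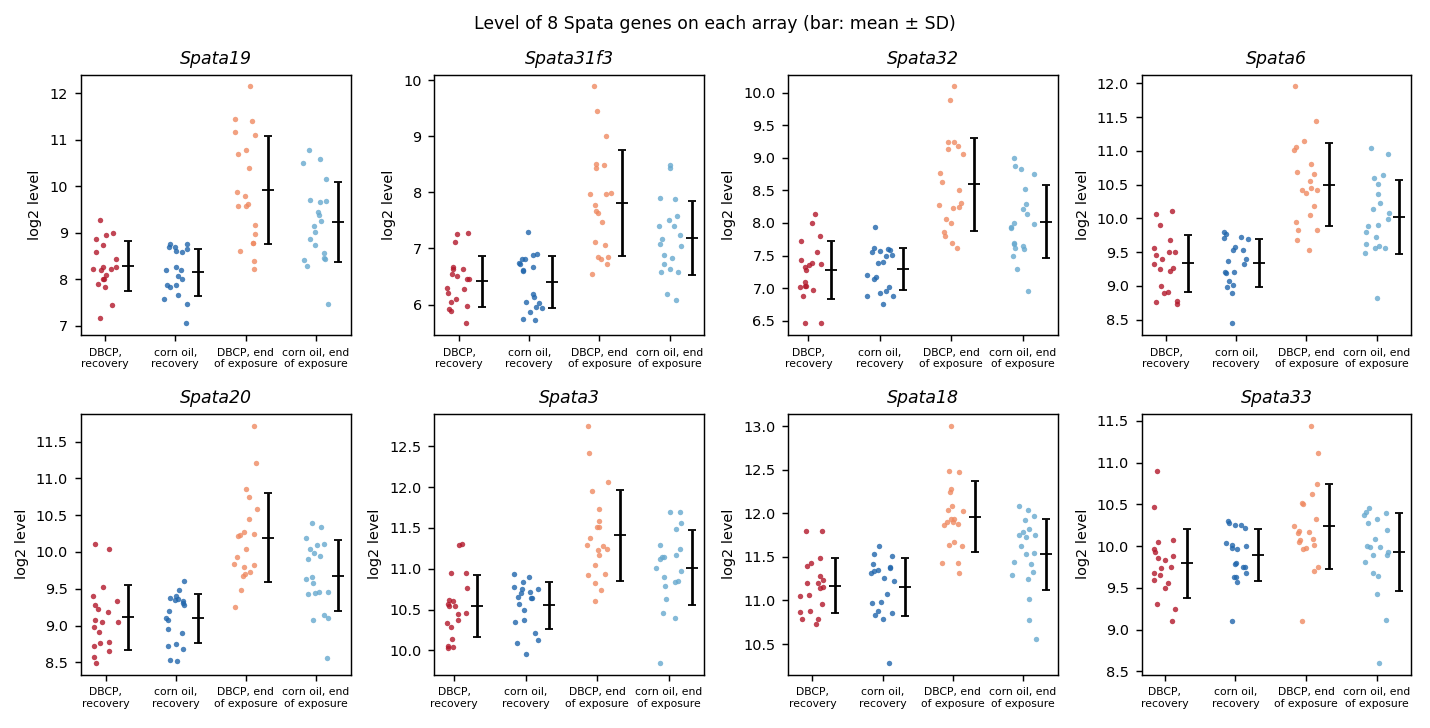
Log2 level of 8 Spata genes on each array (points) with the mean ± SD (bar) of the 4 groups. Spata6 averaged 9.33 and 9.34 in the recovery groups (DBCP and corn oil) and 10.50 and 10.02 at the end of exposure, and the DBCP end of exposure group has the highest array in all 8 panels.

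The head and nucleus list had 4 members, of which 3 fell in DBCP rats and 2 in corn oil rats. Spata20 encodes a thioredoxin-like protein of spermatids, described in the rat as Ssp411. Its levels were 8.50, 9.06 and 10.10 on DBCP recovery arrays, against 9.25, 10.13 and 11.72 on DBCP end of exposure arrays. Corn oil arrays had 8.52, 9.20 and 9.61 after recovery, against 8.56, 9.65 and 10.39 at the end of exposure. The recovery arrays of both treatments all lay below the earlier means. Spata20 fell 2.11-fold in DBCP rats (-1.08 ± 0.15, limma adjusted p = 1.66e-07) and 1.49-fold in corn oil rats (-0.58 ± 0.15, limma adjusted p = 0.00325).

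Spata24 fell by 0.75 ± 0.13 in DBCP rats (limma adjusted p = 2.12e-05) and by 0.38 ± 0.13 in corn oil rats (limma adjusted p = 0.0276). Its corn oil call was lost without corn oil end of exposure replicate 9, and also after centring on the array medians (-0.35, limma adjusted p = 0.0607). Spata1 fell by 0.33 ± 0.11 in DBCP rats (limma adjusted p = 0.0389), and its corn oil difference was -0.23 ± 0.11 (limma adjusted p = 0.134). The Spata1 call was lost on leaving out any 1 of 10 arrays, among them DBCP end of exposure replicates 2, 3, 10, 13 and 20. It was also lost in replicate numbers 1 to 10 alone and in numbers 11 to 20 alone. Spata25 passed in neither treatment (-0.11 ± 0.04, limma adjusted p = 0.0828, in DBCP rats and -0.09 ± 0.04, limma adjusted p = 0.115, in corn oil rats).

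Of the Spata31 family, 2 of 3 members fell in each treatment. The family has 20 symbols in the RefSeq table, and near-identical copies could share a probe set's signal, so these values may belong to several genes. Spata31f3 had levels of 5.66, 6.45 and 7.28 on DBCP recovery arrays, against 6.54, 7.73 and 9.89 on DBCP end of exposure arrays. Corn oil arrays had 5.72, 6.60 and 7.29 after recovery, against 6.07, 7.13 and 8.49 at the end of exposure. All 19 DBCP and 18 of 19 corn oil recovery arrays lay below the earlier mean. The fall was 2.63-fold in DBCP rats (-1.39 ± 0.21, limma adjusted p = 7.13e-07) and 1.72-fold in corn oil rats (-0.78 ± 0.21, limma adjusted p = 0.00428).

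Spata31 fell by 0.29 ± 0.09 in DBCP rats (limma adjusted p = 0.0243), a call lost without DBCP end of exposure replicate 13, and had -0.14 ± 0.09 in corn oil rats (limma adjusted p = 0.272). Spata31d1 had -0.06 ± 0.05 in DBCP rats (limma adjusted p = 0.450). It fell by 0.13 ± 0.05 in corn oil rats (limma adjusted p = 0.0311), a call lost under either scaling and without corn oil end of exposure replicate 3 or corn oil recovery replicate 4 or 7. Its levels moved over a span of less than 1 log2 unit on all 78 arrays (6.61 to 7.31), while those of Spata31f3 ran from 5.66 to 9.89.

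Members without an assigned role were Spata3, Spata21 and Spata9. Spata3 stood at 10.03, 10.54 and 11.30 on DBCP recovery arrays, against 10.60, 11.29 and 12.75 on DBCP end of exposure arrays. Corn oil arrays had 9.95, 10.65 and 10.94 after recovery, against 9.85, 11.07 and 11.70 at the end of exposure. Every recovery array lay below the earlier mean, although the single lowest corn oil array came from the end of exposure. Spata3 fell by 0.87 ± 0.14 in DBCP rats (limma adjusted p = 2.16e-06) and by 0.46 ± 0.14 in corn oil rats (limma adjusted p = 0.00969). Spata21 fell by 0.56 ± 0.10 in DBCP rats (limma adjusted p = 3.76e-05) and just missed the threshold in corn oil rats (-0.26 ± 0.10, limma adjusted p = 0.0522). Spata9 passed in neither (-0.12 ± 0.06, limma adjusted p = 0.158, in DBCP rats and -0.03 ± 0.06, limma adjusted p = 0.716, in corn oil rats), and its probe set averaged 5.52, below the median of probe set means, as did those of Spata13, Spata2 and Spata31.

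The 3 regulators used in many tissues had small differences. Spata2, an adaptor that joins the deubiquitinase CYLD to the linear ubiquitin ligase in TNF signalling, had -0.05 ± 0.05 in DBCP rats (limma adjusted p = 0.533) and fell by 0.14 ± 0.05 in corn oil rats (limma adjusted p = 0.0283). Spata13, which activates the GTPases Rac1 and Cdc42, had -0.06 ± 0.06 in DBCP rats (limma adjusted p = 0.555) and fell by 0.19 ± 0.06 in corn oil rats (limma adjusted p = 0.0182). Both corn oil calls were lost with quantile normalization, and that of Spata2 also with median centring and without corn oil end of exposure replicate 2. Spata2L, the relative of Spata2, fell in both (by 0.15 ± 0.05, limma adjusted p = 0.0183, in DBCP rats and by 0.18 ± 0.05, limma adjusted p = 0.0033, in corn oil rats). Its arrays ran from 6.79 to 7.30 after recovery and from 6.90 to 7.53 at the end of exposure in DBCP rats, so the groups overlapped over most of their range.

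The other spermatid genes of a list drawn up beside the members (protamines, tail, acrosome and kinase genes, 41 of 51 on the array) are set beside them as counts. In DBCP rats 25 of 41 fell and 0 rose, with 40 differences below 0 and 1 above. In corn oil rats 15 of 41 fell and 0 rose, with 34 differences below 0 and 7 above. Leukocyte markers moved the other way. In DBCP rats 14 of 19 rose and 0 fell, and in corn oil rats 14 rose and 1 fell. Of all probe sets, 7.28% rose and 6.19% fell in DBCP rats, and 11.5% rose and 12.8% fell in corn oil rats. The mean level of the 19 markers lay between 8.28 and 9.08 on DBCP recovery arrays, against 7.84 to 8.68 on DBCP end of exposure arrays, and between 8.45 and 9.36 on corn oil recovery arrays, against 8.05 to 8.88 on corn oil end of exposure arrays. The dimmest of them, Cd2, averaged 6.18. Their part in the fall of the Spata genes was not tested. In such bulk RNA, fewer sperm among the cells and less of a transcript per sperm cannot be told apart. Nor can recovery be told apart from the age of the rats or the handling at each collection time.

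Without the 6 arrays of low weight, 14 members fell in DBCP rats, where Spata1 and Spata31 no longer passed. In corn oil rats 14 fell, and Spata1 and Spata21 now passed. Of all probe sets 11.7% then passed in either direction in DBCP rats and 26.2% in corn oil rats. Spata19 then had -1.44 in DBCP rats (limma adjusted p = 1.16e-05) and -1.11 in corn oil rats (limma adjusted p = 0.000245). Among replicate numbers 1 to 10 alone 12 fell in DBCP rats and 11 in corn oil rats, where 10.4% and 16.3% of all probe sets passed in either direction. Among numbers 11 to 20 alone 9 fell in DBCP rats and 0 in corn oil rats, where 1.73% and 1.32% of all probe sets passed. In corn oil rats 19 of 21 members then lay below 0 with a median of -0.11, while the median in numbers 1 to 10 was -0.29. Spata19 differed little between the sets in corn oil rats (-1.12 in numbers 1 to 10, -1.06 in numbers 11 to 20), and Spata20 did more (-0.86 and -0.29). In DBCP rats the calls of Spata1, Spata33 and Spata4 were lost in both sets. That of Spata6l was lost in numbers 1 to 10 only. Those of Spata2L, Spata21, Spata31 and Spata7 were lost in numbers 11 to 20 only. Whether the sets themselves differ was not tested.

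At the end of exposure, DBCP was set against corn oil to ask whether the toxicant left a mark on these transcripts. Spata levels stood somewhat higher on DBCP arrays, with 19 of 21 log2 differences above 0 and a median of 0.29, against -0.02 over all probe sets, of which 38.0% lay above 0. The shift was not particular to the Spata genes. Of the other spermatid genes 38 of 41 lay above 0 too, with a median of 0.22 and 0 passing. Limma called 0 members, as it called 0 (0%) of all probe sets. Without adjustment 13 of 21 had a p under 0.05, all higher in DBCP rats, where 11.6% of all probe sets did, 6.91% higher and 4.68% lower. The lowest adjusted p among the members was 0.120.

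Spata18 had the smallest p of the members. With the levels given above, it averaged 11.96 ± 0.41 on 20 DBCP arrays and 11.53 ± 0.41 on 20 corn oil arrays (SD), and 17 of 20 DBCP arrays lay above the corn oil mean. The difference was 0.43 ± 0.11 (SE, limma adjusted p = 0.120). Spata20 followed with 0.51 ± 0.15 (limma adjusted p = 0.148, 17 of 20 arrays) and Spata32 with 0.57 ± 0.16 (limma adjusted p = 0.153, 15 of 20 arrays). Spata19 had the largest difference, 0.69 ± 0.25 (limma adjusted p = 0.229), with 13 of 20 DBCP arrays above the corn oil mean. Spata31f3 had 0.63 ± 0.20 (limma adjusted p = 0.189), Spata6 0.48 ± 0.15 (limma adjusted p = 0.186), Spata3 0.40 ± 0.13 (limma adjusted p = 0.203) and Spata33 0.31 ± 0.13 (limma adjusted p = 0.341). By list, all 3 mitochondrial, 5 tail and cilium (Spata32 among them), 4 head and nucleus and 3 Spata31 members lay above 0. So did 1 of the 3 regulators used in many tissues. The medians of these groups were 0.43, 0.33, 0.30, 0.16 and -0.03.

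The size of this difference depended on a few DBCP arrays. The SD of the members within a group was largest on DBCP end of exposure arrays for 16 of 21 members, with a median of 0.51, against 0.33 on corn oil end of exposure arrays. Replicate 13 was the highest DBCP array for 16 members, with Spata19 at 12.14 and Spata6 at 11.95 (group medians 9.70 and 10.44). Replicate 12 was the lowest array for 14 members in the DBCP group and for 14 in the corn oil group. With array weights the members' median difference was 0.19 in place of 0.29, and 10 of 21 had an unadjusted p under 0.05, where 9.81% of all probe sets did. The arrays of low weight at the end of exposure were all DBCP arrays, high for most members, so leaving them out lowers the DBCP side alone. Without them the median was 0.11, 19 of 21 differences stayed above 0, and 0 members passed. Without adjustment 4 of 21 then had a p under 0.05, where 4.53% of all probe sets did. Spata19 had 0.40, Spata32 0.37, Spata31f3 0.34, Spata20 0.33, Spata18 0.32, Spata6 0.30, Spata3 0.22 and Spata33 0.16. In numbers 1 to 10 alone the median was 0.16 and in numbers 11 to 20 alone 0.40. The leukocyte markers lay lower on DBCP arrays, 18 of 19 with a difference below 0 and a median of -0.14, and 0 passed. All 6 erythrocyte markers also lay below 0, with a median of -0.20 and 0 passing. After recovery 17 of 19 leukocyte markers were again below 0 (median -0.18, 0 passed), as were 5 of 6 erythrocyte markers (median -0.29, 0 passed). The Spata median was then 0.01, and 57.9% of all probe sets lay above 0. The part of these cells in the Spata differences was not tested.

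**Figure D3:**
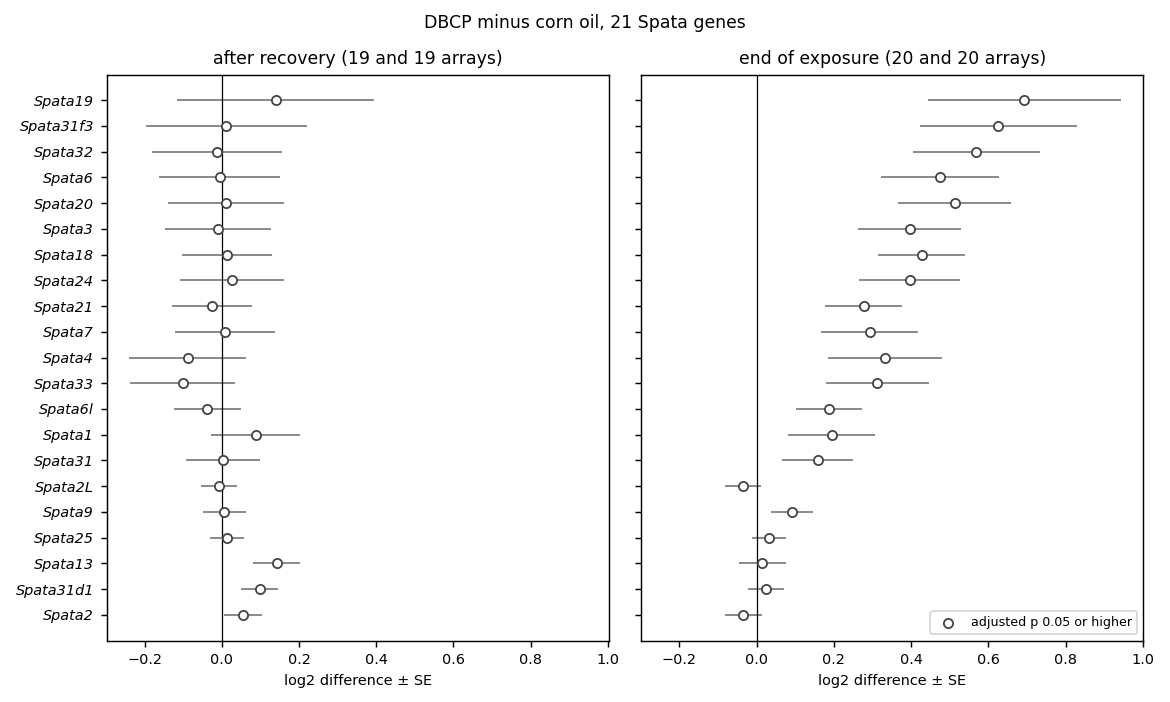
Log2 difference (DBCP minus corn oil) of the 21 Spata genes after recovery and at the end of exposure, with its SE as a bar; open points have an adjusted p of 0.05 or higher, and none passed. At the end of exposure 19 of 21 points lie right of 0, up to 0.69, while after recovery they run from -0.10 to 0.14.

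After recovery the DBCP and corn oil arrays lay close together. The 21 differences ran from -0.10 to 0.14 with a median of 0.01, as over all probe sets (0.01). Limma called 0 members, and it called 0 (0%) of all probe sets. Without adjustment 2 of 21 had a p under 0.05, both higher in DBCP rats, where 3.71% of all probe sets did, 2.38% higher and 1.33% lower. These were Spata13 (0.14 ± 0.06, limma adjusted p = 0.983, with 15 of 19 DBCP arrays over the corn oil mean) and Spata31d1 (0.10 ± 0.05, limma adjusted p = 0.983, with 13 of 19), followed by Spata2 (0.05 ± 0.05, limma adjusted p = 0.983). Without the arrays of low weight 0 members passed and 2 had an unadjusted p under 0.05, where 9.08% of all probe sets did.

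The members that had differed most at the end of exposure were near 0. Spata18 had 0.01 ± 0.12, with a 95% interval from -0.21 to 0.24. Spata19 had 0.14 ± 0.26, with an interval from -0.36 to 0.64, which is wide because its arrays vary most. Spata6 (-0.01 ± 0.16), Spata32 (-0.01 ± 0.17), Spata3 (-0.01 ± 0.14), Spata31f3 (0.01 ± 0.21) and Spata33 (-0.10 ± 0.14) did not pass either. The direction of values this close to 0 turned with the setting for several of them.

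The interaction, which is the DBCP difference after recovery minus that at the end of exposure, was tested next. Of the members, 17 of 21 had a value below 0, with a median of -0.30. Over all probe sets the median was 0.03, and 61.5% lay above 0. The other spermatid genes had 35 of 41 values below 0, with a median of -0.23 and 0 passing. Limma called 0 members and 0 (0%) of all probe sets, and without adjustment 9 of 21 had a p under 0.05, all below 0, where 10.9% of all probe sets did, 5.97% above 0 and 4.88% below. Spata18 had -0.41 ± 0.16, Spata32 -0.58 ± 0.24 and Spata20 -0.50 ± 0.21 (limma adjusted p = 0.454 each). Spata31f3 had -0.61 ± 0.29, Spata19 -0.55 ± 0.36, Spata6 -0.48 ± 0.22, Spata33 -0.41 ± 0.19 and Spata3 -0.41 ± 0.19. The 4 values above 0 were those of Spata13, Spata2, Spata2L and Spata31d1, of which Spata2L turned below 0 after median centring and Spata2L and Spata31d1 in numbers 11 to 20 alone. Without the arrays of low weight the members' median was -0.18, 0 passed, and 4 of 21 had an unadjusted p under 0.05, where 8.64% of all probe sets did. The comparisons over time and those of DBCP with corn oil share arrays, so their values are given side by side and are not independent.

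Within groups the members of widest spread varied together from array to array. The 4 of largest SD within groups were Spata19 (0.81), Spata31f3 (0.66), Spata32 (0.53) and Spata6 (0.50). Their 6 pairs were correlated over the 78 arrays as deviations from the group means. Pearson's r lay between 0.897 (Spata19 with Spata6) and 0.926 (Spata31f3 with Spata32), and Spearman's rho between 0.881 and 0.921. With deviations permuted within groups, each had a two-sided permutation p of 1e-05, the smallest that the 100000 resamples can give, and an adjusted p of 1e-05 over the 12 tests. Leaving out the 2 arrays farthest from the median of the first gene gave r between 0.875 and 0.910. Within single groups r lay between 0.782 (Spata31f3 with Spata6 on corn oil recovery arrays) and 0.964 (Spata31f3 with Spata32 on DBCP end of exposure arrays). At the other end, Spata25 (0.13), Spata2L (0.14), Spata31d1 (0.14) and Spata2 (0.15) had the smallest SD within groups.

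**Figure D4:**
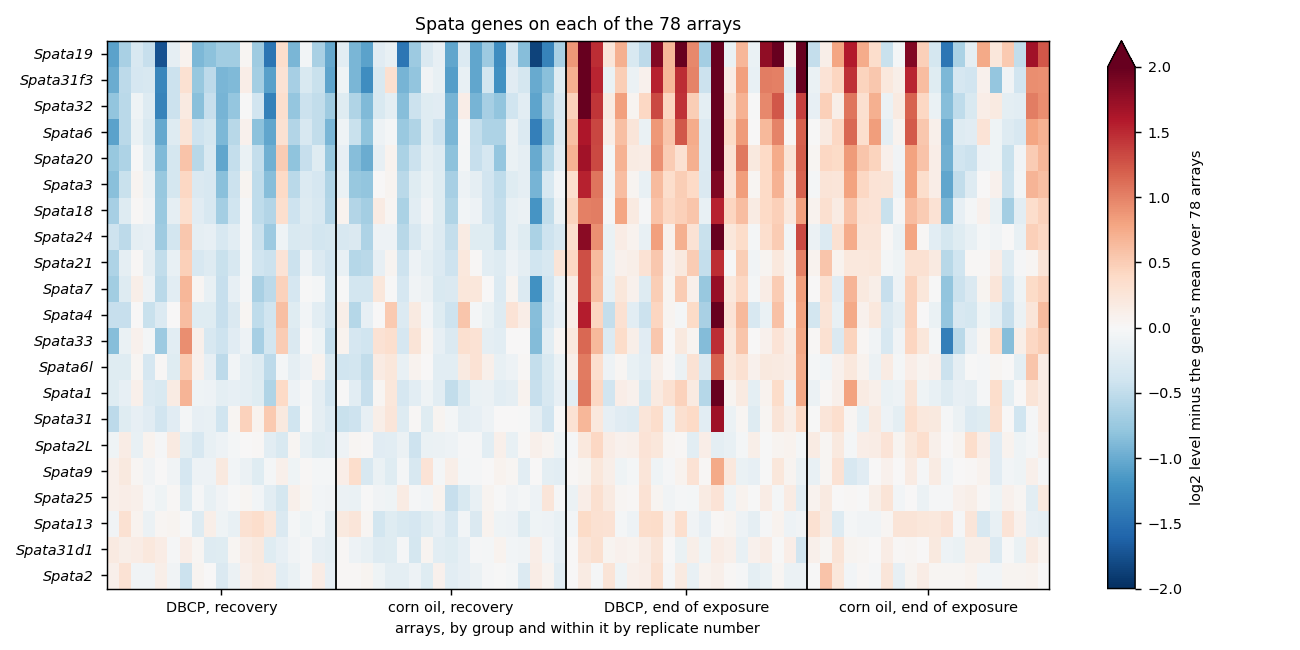
Log2 level of each Spata gene minus its own mean over the 78 arrays (colour, red above and blue below the mean), with arrays as columns by group and replicate number and genes ordered by their difference over time in DBCP rats. DBCP end of exposure replicates 2 and 13 were each among the 3 highest arrays of their group for 17 of the 21 genes, and Spata25, Spata2L, Spata31d1 and Spata2, with the smallest SD within groups, lie near their means.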

How the data were processed

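RNA of 78 sperm samples was measured on arrays. The authors deposited log2 values (29214 probe sets, 0 missing). Limma is the only tool named, per the submitters' processing notes; how background was handled and arrays were normalized is not stated in these sources. The arrays had medians between 6.55 and 6.75 and were used without further scaling. Precision depends on how many arrays there are and on the spread of each gene. A member's SE for DBCP minus corn oil at the end of exposure was 0.11 at the median. It ran from 0.04 (Spata25) to 0.25 (Spata19).

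Symbols came from the platform annotation, with probe sets of 1 symbol only, and for each gene the one of highest mean. All arrays entered 1 limma fit (version 3.58.1, R 4.3.3, lmFit and eBayes) with a mean per group, 5 contrasts and Benjamini-Hochberg adjustment over all probe sets at a threshold of 0.05. Correlations used permutation within groups (SciPy 1.17.1). On data simulated for the end of exposure comparison of DBCP with corn oil (29214 probe sets), limma called 98 of 100 changes of 0.5 and 100 of 100 changes of 1 (log2). The changed probe sets were picked at random, and noise was drawn independently for each, without the shared variation seen among the members. Spata19 (SE 0.25) and Spata31f3 (SE 0.20) had SDs at percentiles 99.9 and 99.8 of all probe sets. The simulated counts do not tell how often a change of 0.5 would be called in such members. The labels call the samples biological replicates, without naming animals.

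The members, lists and tests were chosen with earlier results of these data known. Values in full are given for members that passed in any contrast, the 3 of smallest p where none passed, the 4 of highest mean signal and the 4 of largest SD within groups. Marker lists of erythrocytes, epididymal principal, basal and clear cells, stroma, and spermatogonia and spermatocytes were also fitted. Their medians over time ran from -0.07 to 0.13, and each list had at most 3 members rising and 2 falling in any contrast. The lists are short. In corn oil rats 3 of 7 basal and clear cell markers rose over time and 1 fell. Of 11 principal cell markers 3 rose and 2 fell, where 11.5% of all probe sets rose and 12.8% fell. In DBCP rats 0 rose and 1 fell in either of these lists. The alternatives were other scalings, filters, weights, blocks, subsets of arrays and leaving out each array.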

Additional observations from a re-analysis of the deposited data

How the results depend on the processing

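Counts of passing members were recomputed under 12 settings (11 for the interaction) and without each of the 78 arrays. In both comparisons of DBCP with corn oil and in the interaction the count was 0 under all of them, and leaving out single arrays gave 0 to 0. Over time, leaving out single arrays gave 13 to 16 in DBCP rats and 11 to 13 in corn oil rats. In replicate numbers 11 to 20 alone 9 members fell in DBCP rats and 0 in corn oil rats, and the cause was not tested. The other settings gave 12 to 17 in DBCP rats and 9 to 14 in corn oil rats. With only the groups of the contrast fitted, 13 passed in DBCP rats, where Spata1, Spata31 and Spata4 were lost. In corn oil rats that fit gave 14, with Spata1 and Spata21 gained. Of all probe sets it called 10.9% in DBCP rats and 26.7% in corn oil rats. The replicate number as a block gave 15 and 13, where 13.3% and 21.3% of all probe sets passed. With it the call of Spata1 in DBCP rats was lost and that of Spata21 in corn oil rats was gained. Same-numbered arrays did not deviate together in general (median r between -0.08 and 0.06 across group pairs), so the numbers were not taken to pair the samples. Single pairs did vary, from -0.49 to 0.57 between the end of exposure groups, where 9 of 20 had an r over 0.1. The 6 relations between members kept their direction without 2 arrays. The planned comparison of a gene's other probe sets was not run, since each member had 1.

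Over the 21 members and these settings 56 single differences turned sign, 39 of them in the DBCP difference after recovery, 3 in that before it, 7 in the interaction, and over time 3 in DBCP rats and 4 in corn oil rats. None of the 56 passed, and the cause was not tested. Of these, 26 belong to members described in the same comparison. After recovery Spata18 had -0.035 with array weights, -0.0015 in numbers 1 to 10 and -0.045 without arrays of low weight. In the same settings Spata31f3 had -0.027, -0.053 and -0.066, and it had -0.0017 with median centring and -0.015 with quantile normalization. Spata19 had -0.053 in numbers 1 to 10. In numbers 11 to 20 Spata31d1 had -0.0075, Spata32 0.033 and Spata6 0.031. With the replicate number as a block Spata3 had 0.043, Spata32 0.041 and Spata6 0.044, and with quantile normalization Spata6 had 0.016. Over time in DBCP rats, Spata13 had 0.067 and Spata2 0.042 in numbers 11 to 20, and Spata2 0.0015 with array weights. Over time in corn oil rats, Spata33 had 0.062 and Spata4 0.065 in numbers 11 to 20, and with median centring Spata33 had 0.0013 and Spata9 3.11e-05. In the interaction Spata2L had -0.0015 with median centring, and in numbers 11 to 20 Spata2L had -0.029 and Spata31d1 -0.019.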
